A study of Homo sapiens with 21 samples.

Results

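The 10 genes described here, S100P, S100A4, S100A6, S100A8, S100A9, S100A10, S100A11, S100A13, S100A14 and S100A16, encode members of the S100 family of calcium-binding proteins. They are 10 of the 37355 genes in the count table of an RNA sequencing study of BT474, a breast cancer cell line with amplified HER2. The 10 symbols were named in advance as a list, each symbol was matched to its row of the table, and 19 genes of the family are in the table in all. The list was drawn up with results of these data known, and which measured values the genes were chosen by is not stated. The levels, changes and counts of the 10 genes are therefore a description, and a high number of changed members is not support for any statement about the family.

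S100 proteins are small proteins with a pair of EF-hand motifs, and most are calcium sensors and act as dimers. In most members, though not in all, calcium opens a hydrophobic face through which other proteins are bound. Among these are annexins, cytoskeletal proteins and regulators of protein turnover. S100 proteins have no enzymatic activity of their own. Several are also released from cells and act on surface receptors such as RAGE, and S100P, S100A4 and the S100A8-S100A9 heterodimer calprotectin are known for their presence in breast and other carcinomas.

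The study asked how the transcriptome of BT474 responds to antibodies against HER2 and how it differs in cells resistant to them. All cells derived from BT474 and were grown in RPMI-1640 with serum. One group was untreated BT474. A second was BT474 exposed to 10 µg/mL trastuzumab, an antibody against HER2, for 3 days, and the third was BT474 exposed for 3 days to 10 µg/mL trastuzumab and 10 µg/mL pertuzumab, an antibody that binds HER2 at another site. BT-TR1 and BT-TR2 were pools of cells resistant to trastuzumab, and BT-TPR1 and BT-TPR2 were pools resistant to trastuzumab plus pertuzumab. These 4 pools had 7 days off antibody by the time of harvest. Values for the 4 pools are listed first for BT-TR1, then BT-TR2, then BT-TPR1 and last BT-TPR2. Each of the 7 groups had 3 libraries. The labels do not say whether the 3 came from separate cultures, so p-values measure the spread between these libraries only, and a resistance class is represented by 2 pools of 1 cell line.

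Library totals ran from 7939270 to 21746391 counts and differed by group. The BT474 libraries had 19324898 to 21746391 counts. BT-TR1 libraries had 13432287, 11970803 and 7939270, and those of the other pools 14122216 to 19559313. Comparisons of pools with untreated cells, and of BT-TR2 with BT-TR1, thus also differ in depth. Mitochondrial transcripts took 24.5% to 33.3% of the counts in replicate 1 of the 3 BT474 groups and 13.7% to 21.9% in the other 18 libraries. Over genes, the deviation of a library from its group mean correlated with GC content at r of 0.313 to 0.627 in replicate 1. In replicates 2 and 3 r ran from -0.537 to 0.0828. Levels are given as counts per 1000000 of the normalised library size (CPM), with the standard deviation (SD) over 3 libraries, and a gene is called changed at an adjusted p under 0.05 in edgeR's quasi-likelihood test over 17650 genes. Of all tested genes 21.3% were called higher and 22.3% lower in BT-TR1, and 12.7% and 12.1% in BT-TR2. In BT-TPR1 it was 12.9% and 14.4%, and in BT-TPR2 15.6% and 16%. The 8 luminal epithelial markers summed to between 7827 and 15820 CPM, and in each of the 4 pools 2 of the 8 were called. GATA3 fell in every pool, from 178 CPM in untreated cells to between 59.2 and 95 CPM, and the other call was a fall in the first 3 pools and a rise of KRT18 in BT-TPR2 (0.38, adjusted p = 0.0298). The KRT18 call was lost without untreated replicate 2 (0.102), BT-TPR2 replicate 1 or 3 (0.0665 and 0.082) and with only the 2 groups in the fit (0.0949), over 3.37e-05 to 0.102. Squamous keratinocyte markers summed to 13.4 to 23.0 CPM, fibroblast markers to 16.4 to 46.6 CPM and endothelial markers to 5.39 to 18.4 CPM. Within the endothelial list CDH5 was near the detection limit in untreated cells, at 0.121 CPM. It was at 0.645 CPM with both antibodies and at 2.60, 2.01, 0.424 and 0.676 CPM in the 4 pools. At such levels the size of its change is uncertain, and in BT-TPR1 the log2 change of 1.80 ran from 0.628 to 2.476 over the alternatives. VWF fell from 12.7 CPM to 3.89 CPM in BT-TR1, 6.77 CPM in BT-TPR1 and 5.47 CPM in BT-TPR2. In BT-TPR1 the CDH5 call was lost without untreated replicate 2 or BT-TPR1 replicate 1 (0.0526 and 0.075; 0.00432 to 0.075), and the VWF call without untreated replicate 1 (-0.52, 0.16) or BT-TPR1 replicate 2 or 3 (0.0852 and 0.0597; 0.000213 to 0.16). The part of these differences in the results on S100 genes was not tested. In bulk RNA, more cells with a transcript and more transcript per cell cannot be told apart.

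Of the 10 genes, 9 lie in the S100 cluster of chromosome 1 and S100P lies on chromosome 4 (GRCh38, positions from GENCODE 29). S100P (ENSG00000163993.6) spans chr4:6693069-6697170 on the plus strand. On chromosome 1, S100A10 (ENSG00000197747.8) spans chr1:151982915-151994390 and S100A11 (ENSG00000163191.5) chr1:152032506-152047907, both on the minus strand. S100A9 (ENSG00000163220.10; chr1:153357854-153361027, plus strand) and S100A8 (ENSG00000143546.9; chr1:153390032-153391188, minus strand) follow. S100A6 (ENSG00000197956.9; chr1:153534599-153536244), S100A4 (ENSG00000196154.11; chr1:153543613-153550136), S100A16 (ENSG00000188643.10; chr1:153606886-153613145), S100A14 (ENSG00000189334.8; chr1:153614255-153616986) and S100A13 (ENSG00000189171.14; chr1:153618787-153631360) lie together on the minus strand. S100A4 overlaps S100A3 on the same strand and S100A13 overlaps S100A1 on the opposite strand. S100A3 and S100A1 had 14 and 279 counts over all 21 libraries. S100A6 overlaps the antisense gene BX470102.3, which had 298 counts, and because strand use in counting is not given in the sources used here, reads of such pairs cannot be told apart. The pseudogenes S100A11P1 and S100A11P2, which resemble S100A11, had group means of 3.36 to 5.97 CPM and 0.518 to 0.932 CPM, so the assignment of some S100A11 reads is uncertain.

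The 250 bases upstream of the RefSeq start sites (RefSeq, GRCh38.p14) are shown for 4 members, chosen after their values were seen. S100P and S100A4 had the widest ranges of level, S100A14 had the highest level per length in untreated cells, and S100A10 was the member called higher with trastuzumab alone. Each is written 5′ to 3′ along the gene's own strand and ends at the base before the start site. Capitals mark matches to TATAA or to GGGCGG on either strand. The S100P window is chr4:6693628-6693877 (plus strand), and the windows of S100A4, S100A14 and S100A10 are chr1:153545807-153546056, chr1:153616326-153616575 and chr1:151993860-151994109 (all minus strand).
S100P: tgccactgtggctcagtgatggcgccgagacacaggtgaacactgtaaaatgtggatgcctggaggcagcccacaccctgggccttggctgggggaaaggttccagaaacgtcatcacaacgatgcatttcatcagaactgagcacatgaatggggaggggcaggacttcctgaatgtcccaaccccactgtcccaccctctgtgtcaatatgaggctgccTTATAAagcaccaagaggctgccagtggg
S100A4: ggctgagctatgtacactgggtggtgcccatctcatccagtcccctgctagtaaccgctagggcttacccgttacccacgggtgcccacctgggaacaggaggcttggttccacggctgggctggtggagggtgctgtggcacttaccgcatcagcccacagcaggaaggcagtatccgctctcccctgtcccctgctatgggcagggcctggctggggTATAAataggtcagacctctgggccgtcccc
S100A14: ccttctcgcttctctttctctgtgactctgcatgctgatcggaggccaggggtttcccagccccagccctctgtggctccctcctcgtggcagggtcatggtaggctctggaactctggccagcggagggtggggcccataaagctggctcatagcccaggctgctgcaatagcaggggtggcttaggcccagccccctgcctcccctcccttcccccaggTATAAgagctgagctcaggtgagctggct
S100A10: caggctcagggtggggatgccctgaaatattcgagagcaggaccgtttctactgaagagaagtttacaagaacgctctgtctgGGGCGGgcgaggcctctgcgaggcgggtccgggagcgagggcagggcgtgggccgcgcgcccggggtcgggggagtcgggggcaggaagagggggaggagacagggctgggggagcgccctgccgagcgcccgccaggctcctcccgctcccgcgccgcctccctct

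In the S100P window the capitals hold TATAA and, overlapping it, TTATA, which is TATAA on the other strand. The S100A4 and S100A14 windows each hold 1 match to TATAA, and the S100A10 window holds no TATAA and 1 match to GGGCGG. Over all 15 RefSeq start sites of the 10 genes, 8 windows from 7 genes held TATAA, against 18.9% of the 35116 promoter windows of the same length in the table. The S100A8 windows with TATAA overlap and hold the same site, so it is counted more than once. GGGCGG was found in 6 of the 15 windows (42.6% of all windows) and CCAAT in 3 (32% of all). None of the 15 held TGANTCA (6.57% of all windows), the letters GTAAACA (2.98% of all) or the E-box CACGTG (6.34% of all). These matches are descriptions of letters in a fixed window and do not show that a factor binds there.

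Per kilobase of exon, the 10 genes fell into a high and a low set in untreated BT474. The mean level per kilobase was 177 CPM for S100A14, 131 for S100A6, 124 for S100A16 and 101 for S100A11. It was 17.9 for S100A10, 10.6 for S100A13, 3.86 for S100A4 and 1.58 for S100P, and 0.258 and 0.198 for S100A9 and S100A8. The ratio of the highest to the lowest group mean was 19.3 for S100P, 12.9 for S100A4, 8.91 for S100A8 and 7.16 for S100A9. It lay between 1.66 (S100A16) and 2.71 (S100A6) for the other 6. At their highest, in BT-TR1 and BT-TPR2, S100P and S100A4 reached 30.6 and 30.1 CPM per kilobase, below the untreated level of S100A14, S100A6, S100A16 or S100A11.

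**Figure D1:**
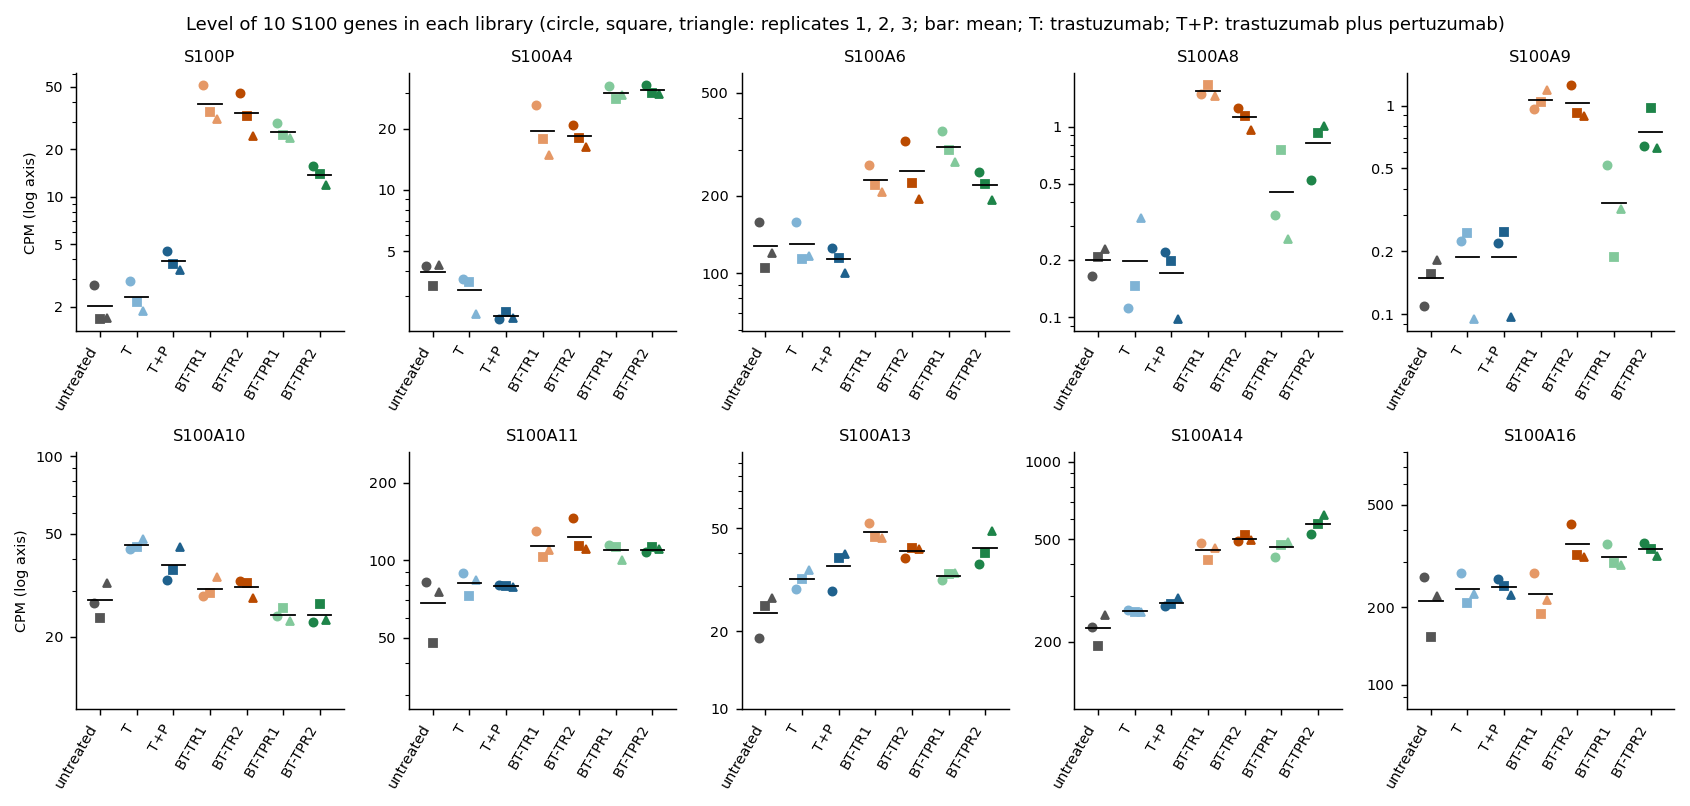
Level of each of the 10 S100 genes in every library, in CPM on a log axis, by group. Circles, squares and triangles are replicates 1, 2 and 3 and the bar is the group mean; S100P and S100A4 sit higher in all 12 pool libraries than in all 9 BT474 libraries, while S100A10 does not separate the pools from untreated cells.

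S100P, a secreted ligand of RAGE that also binds ezrin inside the cell, was the member with the widest range. In the 4 pools it rose 19.4-fold, 16.9-fold, 12.8-fold and 6.83-fold. Untreated libraries had 2.75, 1.66 and 1.68 CPM, and trastuzumab-treated libraries had 2.92, 2.15 and 1.88 CPM. The 3 libraries with both antibodies had 4.51, 3.71 and 3.41 CPM. All 3 of these lay above every untreated and trastuzumab library, whose ranges overlapped each other. BT-TR1 libraries had 51.5, 34.5 and 31.4 CPM and BT-TR2 libraries 45.6, 32.4 and 24.5 CPM. BT-TPR1 libraries had 29.3, 24.5 and 23.6 CPM and BT-TPR2 libraries 15.7, 13.9 and 11.8 CPM. The lowest pool library was thus above the highest BT474 library. BT-TR1 and BT-TR2 overlapped, as did BT-TR2 and BT-TPR1, and BT-TPR2 lay below the other 3 pools.

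The log2 changes of S100P against untreated cells were 4.28, 4.08, 3.68 and 2.77 in the 4 pools, each ± 0.27 (standard error, SE), with adjusted p of 1.23e-09, 3.28e-09, 1.08e-08 and 3.06e-07. Replicate 1 was the highest S100P library in each group. With replicates 2 and 3 alone the 4 changes were 4.29, 4.09, 3.86 and 2.96. With both antibodies S100P rose by 0.94 ± 0.28 (adjusted p = 0.0315), 1.92-fold. That call was lost when untreated replicate 2 or 3 was left out (adjusted p = 0.102 and 0.11), without any 1 of the 3 combination libraries (0.0769, 0.0666 and 0.0567) and with only the 2 groups in the fit (0.0586), over a range of 4.08e-05 to 0.11. Trastuzumab alone gave 0.19 ± 0.29 (adjusted p = 0.748).

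S100A4, known for its link to cell motility and metastasis and for binding non-muscle myosin heavy chain, was also higher in every pool. The rise was 4.98-fold and 4.63-fold in the trastuzumab-resistant pools and 7.56-fold and 7.78-fold in those resistant to both antibodies. The untreated libraries had 4.23, 3.36 and 4.27 CPM. In BT-TR1 the values were 26.1, 17.8 and 14.9 CPM and in BT-TR2 20.8, 17.9 and 16.3 CPM. In BT-TPR1 they were 32.4, 28.1 and 29.3 CPM and in BT-TPR2 32.8, 30.1 and 29.6 CPM. The 6 libraries of the trastuzumab plus pertuzumab pools all lay above the 6 of the trastuzumab pools, an order unlike that of S100P. The log2 changes were 2.32, 2.21, 2.92 and 2.96, each ± 0.19 (adjusted p = 2.97e-08, 7.06e-08, 1.72e-09 and 1.1e-09).

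Under antibody for 3 days S100A4 was not higher. It fell by 0.72 ± 0.20 on the log2 scale with both antibodies (adjusted p = 0.0242), where the libraries had 2.31, 2.52 and 2.34 CPM, all below the untreated ones. With trastuzumab alone the libraries had 3.65, 3.52 and 2.45 CPM, overlapping untreated cells, and the change of -0.31 ± 0.20 was not called (adjusted p = 0.377). The call with both antibodies was lost without untreated replicate 1 or 3 (0.0695 and 0.0742), without any 1 of the combination libraries (0.0618, 0.0565 and 0.0885) and with only the 2 groups in the fit (0.0701), over a range of 0.0025 to 0.0885.

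S100A8 and S100A9, whose proteins form calprotectin, an abundant protein of neutrophils and monocytes that also appears in stressed epithelium, were at a few counts per library. S100A8 had 3, 4 and 5 counts in the untreated libraries, 20, 19 and 11 in BT-TR1, then 21, 22 and 15 in BT-TR2. It had 6, 12 and 4 counts in BT-TPR1 libraries and 9, 20 and 16 in those of BT-TPR2. S100A9 had 2, 3 and 4 counts in the untreated libraries, 13, 12 and 9 in BT-TR1, then 21, 18 and 14 in BT-TR2. It had 9, 3 and 5 counts in BT-TPR1 libraries and 11, 21 and 10 in those of BT-TPR2. In raw counts BT-TPR1 overlapped untreated cells and the other 3 pools lay above them. In CPM, which allows for depth, BT-TPR1 lay above them too, with a lowest value of 0.256 against a highest of 0.227 CPM for S100A8 and 0.189 against 0.182 CPM for S100A9. With antibody for 3 days S100A8 had 2 to 7 counts and S100A9 2 to 5. Mean levels went from 0.2 CPM in untreated cells to 1.53, 1.12, 0.452 and 0.819 CPM in the 4 pools for S100A8, and from 0.149 CPM to 1.07, 1.03, 0.342 and 0.748 CPM for S100A9.

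S100A8 rose by 2.89 ± 0.40, 2.44 ± 0.40 and 1.99 ± 0.41 on the log2 scale in both trastuzumab-resistant pools and BT-TPR2 (adjusted p = 2.68e-05, 0.000188 and 0.00117), and S100A9 by 2.75 ± 0.41, 2.71 ± 0.39 and 2.28 ± 0.41 (6.19e-05, 5.69e-05 and 0.000313). In BT-TPR1 the changes of 1.14 ± 0.46 and 1.16 ± 0.47 were not called (adjusted p = 0.0744 and 0.104). The S100A8 change there was called without BT-TPR1 replicate 3 (1.40, 0.0426). It was also called with a correction for GC content and the replicate number as a block (0.0443), over 0.0426 to 0.554. For S100A9 no alternative gave a call (0.0555 to 0.549). Both genes reached 10 counts in 0 of the 9 BT474 libraries and in 9 and 8 of the 12 pool libraries, so they entered the test only through the pools. On the authors' deposited variance-stabilised log2 values, which compress low levels, the 3 called changes were 1.45, 1.14 and 0.87 for S100A8 and 1.24, 1.19 and 0.93 for S100A9. The myeloid markers other than these genes summed to 0.256 to 1.85 CPM per library over 7 genes in the table. In each group 2 to 4 of these genes were at 0 and the rest had reads. PTPRC, the pan-leukocyte marker, was among those at 0 in 6 of the 7 groups. In untreated cells the sum of 0.672 to 0.989 CPM was above the level of S100A8. Whether S100A8 and S100A9 reads came from myeloid cells was not tested.

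S100A6, which binds annexins and the calcyclin-binding protein CACYBP and is common in proliferating epithelium, rose in every pool from a much higher base. Untreated libraries had 158.5, 104.5 and 119.8 CPM, BT-TR1 libraries 262.8, 220.2 and 207.2 CPM and BT-TR2 libraries 324.7, 224.6 and 194.3 CPM. BT-TPR1 libraries had 354.4, 299.4 and 269.1 CPM and BT-TPR2 libraries 247.5, 221.1 and 191.4 CPM. All 12 pool libraries lay above the 3 untreated ones, and the pools overlapped one another except that BT-TPR1 lay above BT-TPR2 and BT-TR1. The log2 changes were 0.85, 0.96, 1.27 and 0.79, each ± 0.19 (adjusted p = 0.00187, 0.00126, 8.39e-05 and 0.00424). With a correction for GC content the change in BT-TR1 was 1.64. Neither antibody treatment moved it past the threshold, with changes of 0.02 and -0.17.

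S100A11, a partner of annexin A1 in keratinocytes and other epithelia, rose in the 4 pools by 0.74, 0.85, 0.67 and 0.68 on the log2 scale, each ± 0.16 (adjusted p = 0.00119, 0.000598, 0.00347 and 0.00251). Its mean was 68.5 ± 18.1 CPM (SD, n = 3) in untreated cells and between 109 and 123 CPM in the pools. The 12 pool libraries spanned 100.3 to 145 CPM and the untreated ones 47.9 to 82.1 CPM, without overlap. With trastuzumab and with both antibodies the changes were 0.26 and 0.22 (adjusted p = 0.341 and 0.392).

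S100A10, the p11 protein that forms a tetramer with annexin A2 and presents plasminogen at the cell surface, was higher in the treated groups and not in the pools. Untreated libraries had 26.9, 23.7 and 32.4 CPM. With trastuzumab the libraries had 43.7, 44.3 and 48.0 CPM, and with both antibodies 33.3, 36.1 and 44.4 CPM. Both treated groups lay above the untreated one. S100A10 rose by 0.71 ± 0.13 on the log2 scale with trastuzumab (adjusted p = 0.00183) and by 0.46 ± 0.13 with both antibodies (0.0246). The second call was lost without untreated replicate 1 or 2 (0.0643 and 0.104), without combination replicate 3 (0.173), with no filter (0.0594), with library size alone (0.0754) and with only the 2 groups in the fit (0.134), over a range of 0.000187 to 0.173. In the 4 pools the means were 30.7, 31.1, 24.3 and 24.2 CPM, and the changes of 0.15, 0.17, -0.19 and -0.19 were not called (adjusted p = 0.375, 0.358, 0.292 and 0.272). With GC correction the change in BT-TR1 was 0.57 and passed the threshold (0.0243; 0.000225 to 0.715 over its alternatives).

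S100A14, an epithelial member with a calcium site of low affinity that has been described as a ligand of RAGE, had the highest level of the 10 per length. Untreated libraries had 229.4, 192.8 and 254.7 CPM and trastuzumab libraries 265.8, 260.4 and 261.5 CPM. With both antibodies the values were 274.5, 281.1 and 295.0 CPM. The treated libraries lay above all untreated ones in both groups. The pools had 481.7, 415.2 and 462.1 CPM (BT-TR1), 490.4, 521.4 and 497.6 CPM (BT-TR2), 427.1, 477.1 and 490.0 CPM (BT-TPR1) and 525.9, 574.7 and 620.8 CPM (BT-TPR2). Every pool library was above every BT474 library, and BT-TPR2 was above the other pools. S100A14 rose by 1.01, 1.16, 1.04 and 1.35 on the log2 scale, each ± 0.10 (adjusted p = 6.88e-07, 1.48e-07, 6.01e-07 and 1.58e-08), with a spread between libraries that was small beside the change.

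With both antibodies S100A14 rose by 0.33 ± 0.10 (adjusted p = 0.0389), and with trastuzumab the change of 0.22 was not called (0.209). The call with both antibodies was lost under 9 of 32 alternatives, among them those without untreated replicate 1 or 2 (0.0639 and 0.141), trastuzumab replicate 3 (0.0508), combination replicate 2 or 3 (0.0906 and 0.152) or BT-TR2 replicate 3 (0.0527), over a range of 0.000526 to 0.168.

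S100A16, a partner of S100A14 encoded next to it, did not follow it in every pool. Its mean was 211.6 ± 54.8 CPM in untreated cells, and 224.6 ± 42.5, 351.5 ± 61.3, 312.5 ± 33.1 and 336.2 ± 18.8 CPM in the 4 pools (SD, n = 3). BT-TR1 libraries (271.7, 189.1 and 213.1 CPM) overlapped the untreated ones (261.1, 152.8 and 220.8 CPM), while the other 9 pool libraries lay above them. S100A16 rose by 0.73 ± 0.17, 0.56 ± 0.17 and 0.67 ± 0.17 in the other 3 pools (adjusted p = 0.00459, 0.0209 and 0.00663). In BT-TR1 the change was 0.09 (0.706), and with GC correction it was 0.56 and passed the threshold (0.000349; 2e-05 to 0.882 over its alternatives). The call in BT-TPR1 was lost without untreated replicate 2 (0.0768), without BT-TPR1 replicate 1 (0.0717) and with only the 2 groups in the fit (0.0644), over a range of 1.75e-06 to 0.0768. With trastuzumab and with both antibodies the means were 234.7 and 240.6 CPM, and the changes of 0.15 and 0.19 were not called (0.66 and 0.527). With GC correction the change with both antibodies was 0.34 and called (0.025; 0.00481 to 0.968 over its alternatives). With trastuzumab adjusted p ran from 0.0395 to 0.95.

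S100A13, which takes part in the release of FGF1 together with synaptotagmin 1, rose in all 4 pools and with both antibodies. Its mean was 23.6 ± 4.28 CPM in untreated cells, 31.8 ± 2.66 CPM with trastuzumab and 35.6 ± 6.12 CPM with both antibodies (SD, n = 3). In the pools it was 48.3, 40.7, 32.8 and 41.8 CPM. All treated and pool libraries lay above the untreated range of 18.7 to 26.9 CPM. The log2 changes were 1.03 ± 0.15 (adjusted p = 3.14e-05), 0.79 ± 0.14 (0.000596), 0.48 ± 0.14 (0.0197) and 0.83 ± 0.14 (0.000273) in the pools in the same order, and 0.59 ± 0.14 (0.0106) with both antibodies. The call in BT-TPR1 was lost without untreated replicate 1 (0.0821), BT-TPR1 replicate 2 or 3 (0.0674 and 0.0579), with GC correction (0.0523) and with only the 2 groups in the fit (0.0792), over 0.00018 to 0.0821. The call with both antibodies was lost without combination replicate 2 or 3 (0.052 and 0.0704) and with only the 2 groups in the fit (0.0952), over 2.32e-05 to 0.0952. With trastuzumab the change of 0.43 ± 0.14 was not called (0.0757), and with the replicate number as a block it was 0.44 and called (0.00426; 0.0015 to 0.249 over its alternatives).

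Counted by comparison, 1 of the 10 genes was called higher and 0 lower with trastuzumab, where 3.71% of all tested genes were called higher and 3.78% lower. With both antibodies 4 were higher and 1 lower (6.39% and 6.02% of all genes). Among the pools, BT-TR1 had 8 higher (21.3% of all genes, with 22.3% lower) and BT-TR2 had 9 (12.7%, with 12.1% lower). BT-TPR1 had 7 (12.9%, with 14.4% lower) and BT-TPR2 had 9 (15.6%, with 16% lower). In each pool 0 members were lower. Without S100A8 and S100A9, the count of the other 8 genes called higher was 6 in BT-TR1 and 7 in each of the other pools. The median log2 change of the 10 genes was 0.21 and 0.26 in the treated groups and 1.02, 1.06, 1.09 and 1.09 in the pools, against medians between -0.0159 and -0.0024 over all tested genes. These 6 comparisons share the 3 untreated libraries, and the members were chosen with these data known, so nothing further is read from the counts.

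**Figure D2:**
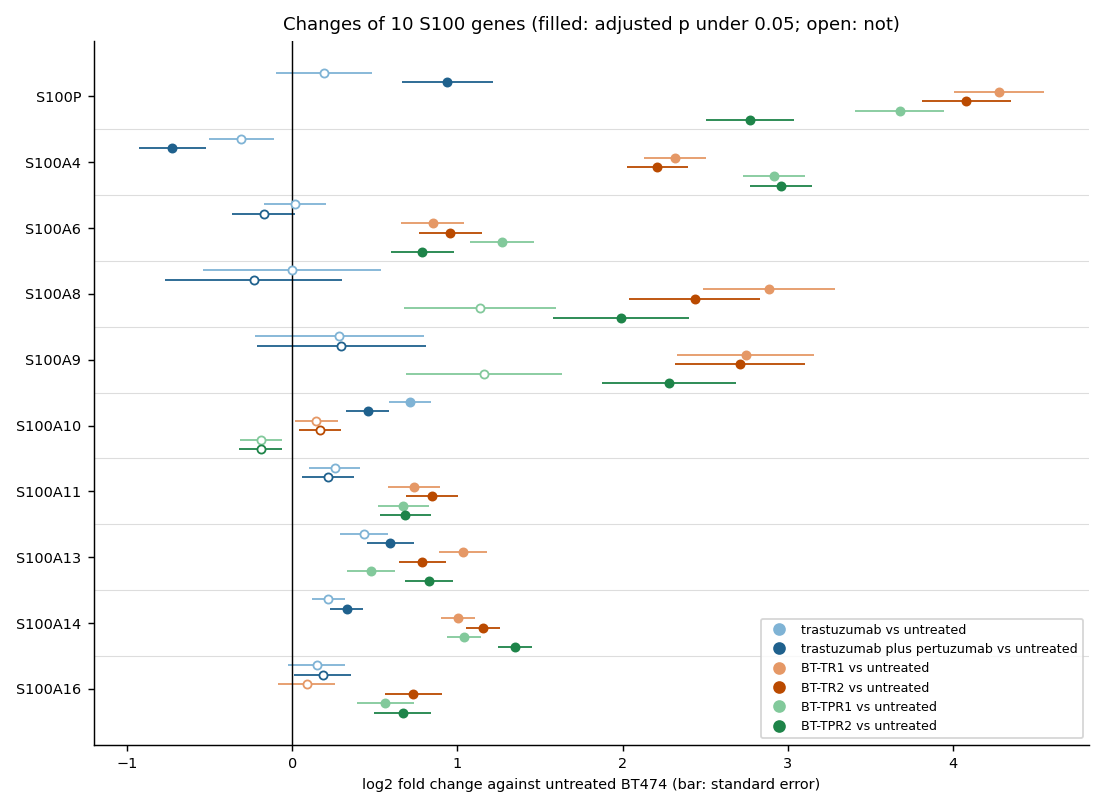
Log2 change of each S100 gene against untreated BT474 in the 2 treated groups and the 4 pools, with the standard error as bars; filled points have an adjusted p under 0.05. S100P reaches 4.28 in BT-TR1, and S100A10 is filled in the treated groups and open in all 4 pools.

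The summed level of the 10 genes was 690.8 ± 122.5 CPM in untreated cells, 791.4 ± 65.2 CPM with trastuzumab and 797.1 ± 10.2 CPM with both antibodies. It was 1162, 1352, 1308 and 1352 CPM in the 4 pools. S100A14 and S100A16 made up 32.7% and 30.6% of the sum in untreated cells. In BT-TPR2 S100A14 made up 42.4%, and in BT-TR1 S100A16 made up 19.3%. S100P made up 0.293% of the sum in untreated cells and 3.37% in BT-TR1.

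The combination was compared directly with trastuzumab alone, at the same dose of trastuzumab and the same 3 days. None of the 10 genes was called by edgeR's quasi-likelihood test, by DESeq2 or by limma on the deposited values. By edgeR's test 0.487% of all genes were called higher and 0.38% lower. S100P was the 1 member at an unadjusted p under 0.05, with a log2 difference of 0.75 ± 0.27 (adjusted p = 0.487), and all 3 combination libraries lay above the trastuzumab ones. With the replicate number as a block the difference was 0.75 and called (adjusted p = 0.00744; 0.0043 to 0.999 over its alternatives).

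The 2 pools of a class were compared to see how far S100 levels differed between pools. Between the trastuzumab-resistant pools 1 member was called higher in BT-TR2 and 0 lower (9.64% and 8.09% of all genes). That member was S100A16, with a difference of 0.65 ± 0.17 (adjusted p = 0.0192). The call was lost with GC correction, where the difference was 0.23 (0.18), with GC correction and block (0.0696), when replicate 2 or 3 of BT-TR1 was left out (0.1 and 0.0894) or replicate 1 of BT-TR2 (0.135) and with only the 2 groups in the fit (0.0508), over a range of 2.93e-05 to 0.18. With GC correction the split was 0 higher and 2 lower, S100A4 (-0.43, adjusted p = 0.0276) and S100A6 (-0.54, 0.00264), which had adjusted p of 0.691 and 0.717 without it (0.00653 to 0.961 and 0.000267 to 0.952 over their alternatives). With GC correction and the replicate block it was 0 higher and 5 lower, the others being S100P (-0.41), S100A10 (-0.36) and S100A13 (-0.59).

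Between the trastuzumab plus pertuzumab-resistant pools 0 members were higher and 1 lower in BT-TPR2 (1.64% and 1.81% of all genes). That member was S100P, which was lower by 0.91 ± 0.23 on the log2 scale, 13.8 ± 1.90 against 25.8 ± 3.05 CPM (adjusted p = 0.0303). The call was lost without any 1 BT-TPR1 library (0.119, 0.0634 and 0.0555) and without BT-TPR2 replicate 2 or 3 (0.0849 and 0.15), over a range of 3.41e-07 to 0.15. With the replicate number as a block, S100A6 was also lower in BT-TPR2 (-0.48, adjusted p = 0.000808), and S100A14 and S100A13 were higher (0.30 and 0.34, adjusted p = 0.0221 and 0.0365). Without the block the adjusted p of these 3 genes were 0.217, 0.121 and 0.246.

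Across the 21 libraries some pairs of members varied together closely and others did not. These correlations describe log2 CPM over libraries that share 7 groups, and carry no test. S100A4 and S100A6 had a Pearson r of 0.917, S100A4 and S100A14 0.913, S100P and S100A6 0.894 and S100A8 and S100A9 0.875. The neighbours S100A14 and S100A16 had 0.696, S100A13 and S100A16 0.223, and S100A4 and S100A10 -0.696. Among 11368 genes of at least 5 CPM, those most like S100P were SCGB2A2, the gene of mammaglobin A (0.976), AZGP1, which encodes zinc-alpha-2-glycoprotein (0.964), and ALOX15B, a lipoxygenase gene (0.95). SCGB2A2 had means of 10.2 CPM in untreated cells, 11.8 and 23.4 CPM in the treated groups and 1021, 1495, 495.4 and 108.7 CPM in the 4 pools. Those most like S100A4 were NOD2, an intracellular sensor of bacterial peptidoglycan (0.972), FKBP4 (0.966) and UQCRHL (0.964), and those most like S100A8 were MORF4L1 (0.943), SH3KBP1 (0.934) and ATP5C1 (0.931).

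Members close to each other on chromosome 1 differed in the size of their change. From the start of S100A10, S100A11 lies at 49.6 kb, S100A9 and S100A8 at 1374.9 and 1407.1 kb, S100A6 and S100A4 at 1551.7 and 1560.7 kb, and S100A16, S100A14 and S100A13 at 1624.0, 1631.3 and 1635.9 kb. S100A6 and S100A4, with S100A5 between them, changed by 1.27 and 2.92 on the log2 scale in BT-TPR1, and S100A16 and S100A14 by 0.09 (not called) and 1.01 in BT-TR1. With GC correction the S100A16 change in BT-TR1 was 0.56 and called (adjusted p = 0.000349). In the other pools S100A16 and S100A14 were both called higher. Of the 35 genes of the table in this stretch that are not S100 genes, 5 were tested. Lower calls took 22.3%, 12.1% and 14.4% of all tested genes in BT-TR1, BT-TR2 and BT-TPR1. In each of these pools 1 of the 5 was lower, the pseudogene LAPTM4BP1 (-1.11, -1.08 and -0.93). All 3 of these calls were lost without untreated replicate 1 (adjusted p = 0.0877, 0.114 and 0.221), where the change in BT-TPR1 was -0.59, and without replicate 3 of the pool (0.0725, 0.0893 and 0.136). In BT-TPR2, where 15.6% of all tested genes were higher, 1 of the 5 was, BX470102.3 (1.01, adjusted p = 0.0441), the gene antisense to S100A6. That call was lost without untreated replicate 2 or 3 (0.0967 and 0.132), any 1 BT-TPR2 library (0.128, 0.0639 and 0.0688), BT-TR2 replicate 2 (0.0524) or BT-TPR1 replicate 2 (0.0521) and with DESeq2 (0.0633), over 0.00467 to 0.132.

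Within 500 kb of S100P, 13 of 25 other genes were tested. Over all tested genes the shares called higher and lower were 21.3% and 22.3% for BT-TR1 and 12.7% and 12.1% for BT-TR2. They were 12.9% and 14.4% for BT-TPR1 and 15.6% and 16% for BT-TPR2. Among the 13 neighbours, the number called higher and lower was 5 and 3 for BT-TR1, 5 and 0 for BT-TR2, 4 and 0 for BT-TPR1 and 4 and 1 for BT-TPR2. Of these neighbours, named after their values were seen, GRPEL1, a mitochondrial import cofactor, rose by 0.47, 0.60, 0.59 and 0.59 on the log2 scale in the 4 pools. MRFAP1 rose by 0.58, 0.54, 0.56 and 0.45, MRFAP1L1 by 0.60, 0.41, 0.46 and 0.42, and AC093323.3 by 0.47, 0.40, 0.46 and 0.52. The calls of MRFAP1L1 were lost in BT-TR2 when untreated replicate 1 or BT-TR2 replicate 2 was left out (adjusted p = 0.0628 and 0.0616; 3.64e-05 to 0.0628 over its alternatives) and in BT-TPR2 when BT-TPR2 replicate 2 was (0.0606; 3.32e-05 to 0.0606). With only the 2 groups in the fit, MRFAP1 was not called in BT-TPR2, MRFAP1L1 in BT-TR2 and BT-TPR2, or AC093323.3 in BT-TR2, and with no filter AC093323.3 was not called in BT-TR2 or BT-TPR1. The largest absolute change among the 13 was that of WFS1, an endoplasmic reticulum membrane protein gene, which fell by 1.42 in BT-TR1 (-0.68 with GC correction), and the largest rise was 0.97, for RP11-539L10.2 in BT-TR1. S100P rose by 2.77 to 4.28.

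**Figure D3:**
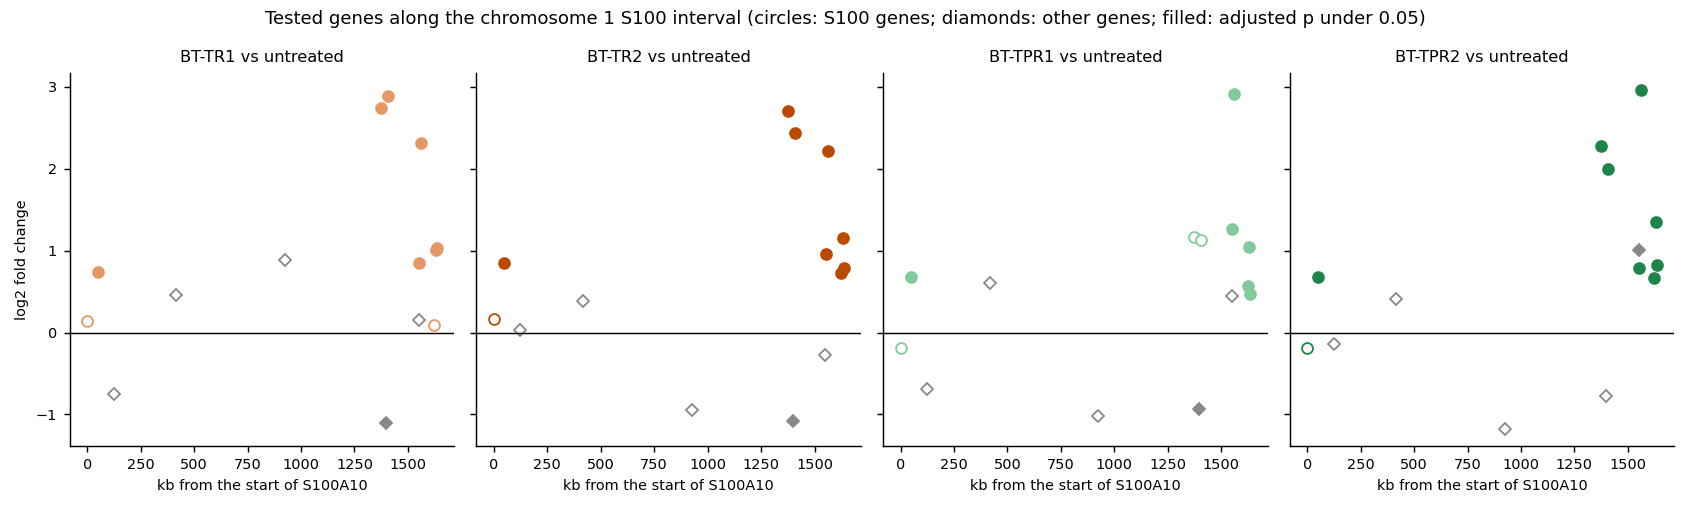
Log2 change against untreated BT474 in the 4 pools, by distance in kilobases from the start of S100A10. Circles are the 9 S100 genes of chromosome 1, and grey diamonds are the other tested genes of the stretch. Filled points have an adjusted p under 0.05; S100A4 (2.92 in BT-TPR1) stands above S100A6 (1.27), which lies close to it.

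The other members of the family were near the detection limit. Of 11 further S100 genes listed, 9 were in the table and 2, S100A1 and S100A2, were tested. Their summed level was 0.633 to 2.37 CPM per library. S100A2 rose in BT-TR1 from 0.204 to 0.621 CPM (1.58 ± 0.54 on the log2 scale, adjusted p = 0.025), and it was the 1 gene of the list called in any comparison. It had 5, 3 and 4 counts in the untreated libraries and 8, 7 and 5 in BT-TR1. Like S100A8 and S100A9 it passed the filter through pool libraries, those of BT-TR1 among them, so its rise there is a description only. That call was lost with DESeq2 (0.0511), with replicates 2 and 3 alone (0.0524) and without untreated or BT-TR1 replicate 2 or 3, over 0.00599 to 0.0632. On the deposited log2 values the change was 0.67. Of 16 fused-type S100 and cornified envelope genes, such as TCHH and IVL, 13 were in the table, 2 were tested and none was called, and they summed to 1.41 to 3.9 CPM. At an unadjusted p under 0.05, TCHH was at -0.82 with trastuzumab, and TCHH and IVL were at 0.79 and -1.83 in BT-TR2 against BT-TR1.

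The partners that S100 proteins bind moved in both directions. Of 14 genes listed, 13 were tested, FGF1 being the exception with 0 to 8 counts per library. The number called higher and lower was 0 and 3 with trastuzumab, 0 and 2 with both antibodies, and among the pools 4 and 3 for BT-TR1, 4 and 1 for BT-TR2, and 2 and 4 for each of the others. Of all tested genes 3.71% and 3.78% were called higher and lower with trastuzumab, and 6.39% and 6.02% with both antibodies. In the pools it was 21.3% and 22.3% (BT-TR1), 12.7% and 12.1% (BT-TR2), 12.9% and 14.4% (BT-TPR1) and 15.6% and 16% (BT-TPR2). SYT1, the synaptotagmin of the S100A13 release complex, fell in every treated group and pool, from 25.2 CPM to 8.99 CPM with trastuzumab, 3.63 CPM with both antibodies and 1.16, 4.09, 1.27 and 1.32 CPM in the pools. The changes were -1.48, -2.79, -4.42, -2.62, -4.30 and -4.25, where S100A13 itself was higher or not called.

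ANXA1, the annexin that S100A11 binds, differed in direction between pools. It rose from 14.7 CPM to 30.7 CPM in BT-TR1 (1.06 ± 0.21, adjusted p = 0.000596), was at 14 CPM in BT-TR2 (-0.07, not called) and fell to 3.42 CPM in BT-TPR1 (-2.11 ± 0.23, 1.65e-06) and 1.81 CPM in BT-TPR2 (-3.02 ± 0.24, 2.71e-08). The direct difference between BT-TR2 and BT-TR1 was -1.13 (0.00277). S100A11 rose in all 4 pools. ANXA1 was also lower with antibody for 3 days, at 8.83 CPM with trastuzumab (-0.74, adjusted p = 0.0363) and 5.80 CPM with both antibodies (-1.34, 0.00034). The trastuzumab call was kept under 24 of 32 alternatives, over 0.00119 to 0.158, and the other under all 32. MYH9, the myosin heavy chain that S100A4 binds, fell from 668.3 CPM to 366.5 CPM in BT-TR1 (-0.87 ± 0.19, 0.00145) and 404.7 CPM in BT-TPR2 (-0.72, 0.00662). With GC correction the BT-TR1 change of MYH9 was -0.25.

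A pair of partners is named after their values were seen. CACYBP, which S100A6 binds, rose from 115.4 CPM to 174.3, 169.2, 174.6 and 194.8 CPM in the 4 pools (0.59, 0.55, 0.60 and 0.76; adjusted p = 0.00819, 0.0206, 0.012 and 0.00204), and with GC correction its change in BT-TR1 was 0.38. The calls in BT-TR2 and BT-TPR1 were lost without untreated replicate 1 (0.101 and 0.0568), without replicate 2 of the pool (0.0951 and 0.0716) and with only the 2 groups in the fit (0.0763 and 0.0577). In BT-TR2 the call was also lost without BT-TR2 replicate 3 (0.0547), and the adjusted p ran from 4.53e-07 to 0.101 in BT-TR2 and from 5.54e-07 to 0.0716 in BT-TPR1. ANXA2, the partner of S100A10, fell from 60.8 to 36.1 CPM in BT-TPR1 (-0.75 ± 0.22, adjusted p = 0.0164), a call lost without untreated replicate 1 (-0.48, 0.12) or BT-TPR1 replicate 2 or 3, over 4.01e-08 to 0.12.

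Surface receptors for S100 proteins were lower or not called. Of 7 listed, 5 were tested, and the number called higher and lower was 0 and 0 with trastuzumab, 0 and 1 with both antibodies, 0 and 3 for BT-TR1, 0 and 2 for BT-TR2 and 0 and 4 for each of the other pools. AGER, which encodes RAGE, had group means of 0 to 0.109 CPM and was at 0 in the 3 BT-TR1 libraries. TLR4, a receptor for calprotectin, had 0.153 to 0.579 CPM. BSG, which encodes the S100A9 receptor basigin, fell from 517.7 CPM to 180.3 CPM in BT-TR1 (-1.52 ± 0.30, adjusted p = 0.000747; -0.62 with GC correction), 292.2 CPM in BT-TPR1 (-0.83, 0.0456) and 244.7 CPM in BT-TPR2 (-1.08, 0.01). The BT-TPR1 call was lost with library size alone (0.0572), without untreated replicate 1 or 2 (0.194 and 0.0622), BT-TPR1 replicate 2 or 3 (0.158 and 0.129), or replicate 2 of the trastuzumab, combination or BT-TR1 libraries (0.0576, 0.0548 and 0.0601), over 2.39e-07 to 0.194. The BT-TPR2 call was lost without untreated replicate 1 (0.0526) or BT-TPR2 replicate 2 or 3 (0.052 and 0.0588), over 3.28e-12 to 0.0588.

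NPTN, the neuroplastin gene, fell from 235.8 CPM to 177.8, 169.6, 133.6 and 154.5 CPM in the 4 pools (-0.41, -0.48, -0.82 and -0.61). ALCAM fell from 491.7 CPM to 304.4 CPM in BT-TPR1 (-0.69, adjusted p = 0.0101) and 260.6 CPM in BT-TPR2 (-0.92 ± 0.19, 0.00115). The BT-TPR1 call was lost without untreated replicate 2 (-0.43, 0.111) or BT-TPR1 replicate 1 (0.0527), with library size alone (0.0586) and with only the 2 groups in the fit (0.0549), over 7.84e-06 to 0.111. In BT-TR1 and BT-TR2 ALCAM was at 651.9 and 352.4 CPM and was not called against untreated cells. The direct difference between BT-TR2 and BT-TR1 was -0.89 (0.00663), a call lost without BT-TR2 replicate 1 (0.0517), over 5.92e-08 to 0.0517. MCAM, named after its values were seen, fell from 5.73 CPM to 1.88, 1.76, 1.84 and 2.62 CPM (-1.55, -1.70, -1.63 and -1.13). Transcript levels were measured, and released or surface protein was not.

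**Figure D4:**
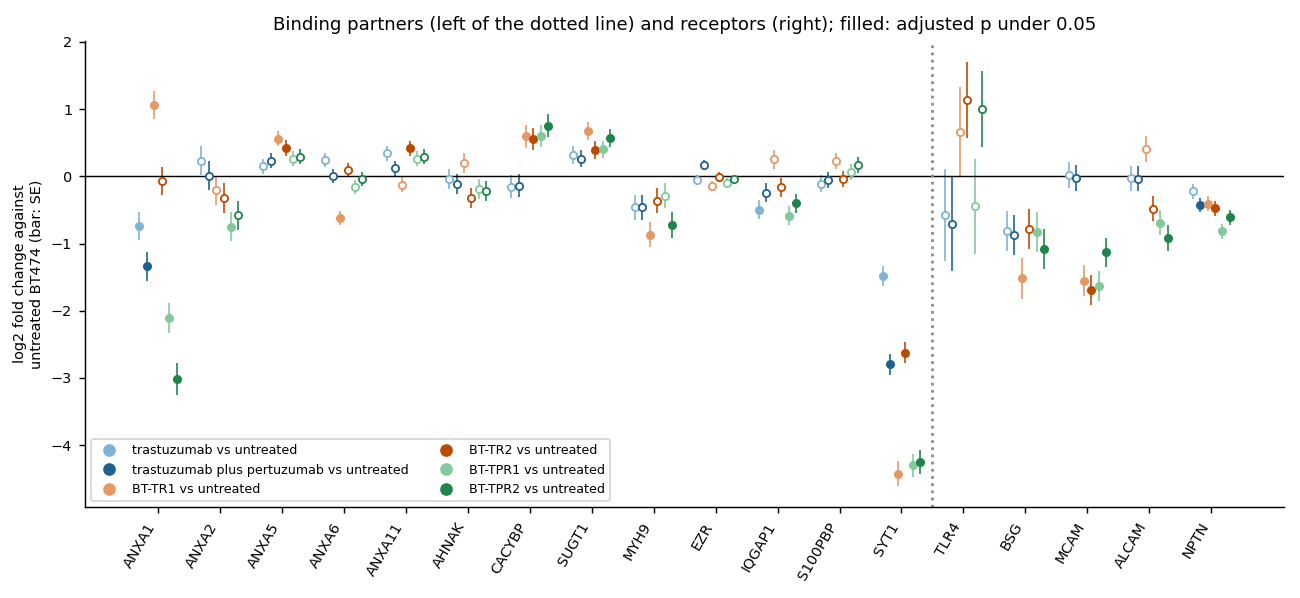
Log2 change against untreated BT474 of S100 binding partners and surface receptors in the treated groups and the 4 pools, with standard errors; filled points have an adjusted p under 0.05. SYT1 is lower in every group, and ANXA1 is higher in BT-TR1 and lower in both treated groups, BT-TPR1 and BT-TPR2.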

How the data were processed

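RNA from BT474 cells and resistant pools derived from them was sequenced in 21 libraries, 7 groups of 3. The authors deposited a table of raw read counts per gene and a table of variance-stabilised log2 values; Bowtie2, featureCounts, DESeq2 and the build hg38 are named per the submitters' processing notes. Versions, the annotation release and strand use in counting are not given in the sources used here.

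The deposited counts were fitted in edgeR 4.0.16 (R 4.3.3) with 1 term per group and all 21 libraries, after filterByExpr by group (minimum count 10, minimum total 15; 17650 of 37355 genes kept) and TMM normalisation, with the quasi-likelihood test and 14 residual degrees of freedom. P-values were adjusted by the Benjamini-Hochberg method over all 17650 genes, and calls in the 9 comparisons were made at adjusted p under 0.05. CPM are counts per 1000000 of the TMM-normalised library size, and levels per kilobase use exon lengths of GENCODE 29. The procedure was tested on simulated counts.

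Groups were taken from the sample labels. The replicate number was checked as a pairing: deviations from group means of same-numbered libraries correlated above 0.1 for every number in 7 of the 9 comparisons (r from 0.135 to 0.645). In the combination against untreated cells and in BT-TR2 against BT-TR1 they did not for number 2 (r = -0.0106 and 0.0732). The labels name no shared batch. Replicate libraries differed by more than counting noise in every group. In each group replicates 2 and 3 differed less from each other than either did from replicate 1. The replicate number had no term in the fit behind the calls and entered only as an alternative.

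The 10 members and the lists of related genes, partners, receptors and markers were chosen with earlier results of these data known. All 10 members are named, with any other S100 gene that was called, and up to 6 called partners or receptors of at least 5 CPM by largest absolute change. For the 3 members with the widest range, the 3 genes with the highest Pearson r over 21 libraries are named. The alternatives were no filter and a strict filter (1 CPM in 3 libraries), DESeq2 size factors within edgeR, library size alone, DESeq2 1.42.0, limma 3.58.1 on the deposited log2 values, only the groups compared, the replicate number as a block, replicates 2 and 3 alone, a GC correction with and without the block, and leaving out each library. Promoter sequences came from RefSeq, and all 10 members matched by symbol. Protein sequences were not used here.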

Additional observations from a re-analysis of the deposited data

Results flagged for a closer look

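In 2 cases the change of an S100 gene against untreated cells differed between the 2 pools of one resistance class, by a direct test of one pool against the other in edgeR. S100P was lower in BT-TPR2 than in BT-TPR1 by -0.91 on the log2 scale (adjusted p = 0.0303), with the 3 BT-TPR2 libraries below the 3 BT-TPR1 libraries. S100A16 was higher in BT-TR2 than in BT-TR1 by 0.65 (adjusted p = 0.0192), with the 3 BT-TR2 libraries above the 3 BT-TR1 libraries. Both calls were lost when single libraries were left out, as given with each result. The pools of a class were compared with each other for 10 genes each, and these 2 were the ones called.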

How the results depend on the processing

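Of 41 called changes of the 10 genes, 32 kept their call under each of 32 alternatives. Over 2868 member values, 49 lost a call, 33 gained one and 3 reversed with a call: S100A6 in BT-TR2 against BT-TR1 with GC correction (-0.54) and with GC correction and replicate block (-0.53), and S100A10 in the same comparison with GC correction and replicate block (-0.36). The cause was not tested. Counts of called members in the 4 pools against untreated cells stayed within 1.5 times. With trastuzumab the count of 1 became 2 with DESeq2, 2 with the replicate block, 2 with replicates 2 and 3 alone, 5 with GC correction and replicate block, and 1 to 2 when 1 library was left out. With both antibodies the count of 5 became 3 with no filter, 0 with only the groups compared, 3 with library size alone and 0 to 5 when 1 library was left out. For the combination against trastuzumab the count of 0 became 1 with the replicate block and 1 with GC correction and replicate block. In BT-TR2 against BT-TR1 the count of 1, which was higher, became 0 with only the groups compared, 2 with GC correction and 5 with GC correction and replicate block, all of them lower and none S100A16, and 0 to 1 when 1 library was left out. In BT-TPR2 against BT-TPR1 the count of 1 became 4 with the replicate block, 3 with replicates 2 and 3 alone, 2 with GC correction, 5 with GC correction and replicate block, and 0 to 1 when 1 library was left out. Library size alone moved the median change of all genes in BT-TPR1 to 0.14. Counts of a few reads limit S100A8 and S100A9, and 2 pools a class limit any statement on resistance.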
